A study of Mus musculus with 23 samples.

Results

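At postnatal day 10 (P10), when pups still suckle, the crypt and villus compartments of the gut epithelium were compared in outbred CD1 mice, using the medial part of the small intestine. The comparison used 6 of the 23 libraries of the series: 3 of Epcam-positive, CD44-positive cells, which the labels call crypt, and 3 of Epcam-positive, CD44-negative cells, which they call villus. All 6 came from intestine flushed and treated with EDTA to release the epithelium, and the cells were separated by fluorescence-activated sorting on the surface proteins Epcam, an epithelial adhesion molecule, and CD44, a receptor for hyaluronan. No genetic change or treatment distinguishes the groups. The only other groups used for a comparison are the equally sorted crypt and villus cells at birth (P0), with 3 libraries each. The libraries of P3 and P6 (postnatal days 3 and 6) were not compared but entered the shared estimate of spread behind the p-values. Messenger RNA was selected by its poly(A) tail and sequenced, and the counts of reads per gene were tested. The labels number the replicates but do not say that they are separate mice or pools, so a p-value here reflects variation among the sequenced libraries, which may be technical.

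Crypts are pockets at the base of the intestinal epithelium where stem cells, kept by Wnt signals, divide and give rise to progenitors. Daughter cells move up the villi, leave the cell cycle and mature into absorptive enterocytes or secretory cells. In suckling rodents the enterocytes are specialised for milk: they cleave lactose, package large amounts of fat into chylomicrons, and take up milk proteins by endocytosis for digestion in lysosomes. The comparison asks which genes mark these compartments before weaning.

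Promoters of 8 genes are shown first. They come from genes of mitosis and DNA replication, mostly higher in crypt, and of nutrient absorption, many of them higher in villus. These kinds of genes were chosen with earlier results of these data known. Others, such as lysosomal and interferon-response genes, also held many genes that differed. Each stretch has 120 bases before and 30 bases from the annotated start of the transcript, read 5′ to 3′ on the gene's own strand, from RefSeq (build GRCm38.p6), and capitals mark motif matches on either strand. The cell division examples come first and the absorptive ones second, and all 8 were chosen after their matches were seen.
Aspm: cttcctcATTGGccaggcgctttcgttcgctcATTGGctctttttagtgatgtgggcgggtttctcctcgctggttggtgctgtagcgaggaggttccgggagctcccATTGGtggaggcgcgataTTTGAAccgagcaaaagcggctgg
Kif11: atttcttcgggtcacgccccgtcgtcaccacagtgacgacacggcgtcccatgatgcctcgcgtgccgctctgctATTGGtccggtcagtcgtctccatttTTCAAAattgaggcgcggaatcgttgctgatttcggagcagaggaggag
Cdc20: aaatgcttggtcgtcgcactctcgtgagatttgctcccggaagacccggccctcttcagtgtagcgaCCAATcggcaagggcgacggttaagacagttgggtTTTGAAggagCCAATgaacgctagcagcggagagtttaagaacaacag
Mcm6: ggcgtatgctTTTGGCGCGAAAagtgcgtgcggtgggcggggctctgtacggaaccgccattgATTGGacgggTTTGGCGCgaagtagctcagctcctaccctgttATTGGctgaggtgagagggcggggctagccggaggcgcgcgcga
Fabp1: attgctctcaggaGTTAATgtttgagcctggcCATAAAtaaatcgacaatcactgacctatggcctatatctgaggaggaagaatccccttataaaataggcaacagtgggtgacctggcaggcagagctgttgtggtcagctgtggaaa
Rbp2: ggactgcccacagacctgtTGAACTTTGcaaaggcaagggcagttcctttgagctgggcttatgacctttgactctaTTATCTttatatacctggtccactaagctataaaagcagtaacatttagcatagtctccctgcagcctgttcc
Alpi: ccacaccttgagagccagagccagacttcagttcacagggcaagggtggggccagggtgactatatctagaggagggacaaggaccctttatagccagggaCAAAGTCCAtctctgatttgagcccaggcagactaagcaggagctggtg
Lct: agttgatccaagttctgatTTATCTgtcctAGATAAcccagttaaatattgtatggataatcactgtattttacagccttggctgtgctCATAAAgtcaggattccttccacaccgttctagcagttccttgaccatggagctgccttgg

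In that build the stretches lie at chr1:139454653-139454802 (Aspm, forward strand), chr19:37376262-37376411 (Kif11, forward), chr4:118437314-118437463 (Cdc20, reverse) and chr1:128359676-128359825 (Mcm6, reverse). The absorptive examples lie at chr6:71199759-71199908 (Fabp1, forward), chr9:98490417-98490566 (Rbp2, forward), chr1:87101577-87101726 (Alpi, reverse) and chr1:128328289-128328438 (Lct, reverse). Aspm, Kif11 and Cdc20 act in the spindle and at anaphase and hold both the CCAAT box (CCAAT) and the element called CHR (cell cycle genes homology region, here TTTGAA or TTCGAA). The CHR of Kif11 begins at base -19 and that of Cdc20 at base -18, counted from the start at 1, and that of Aspm at base 7. Mcm6, which codes for a subunit of the replicative helicase, holds E2F matches (TTTCCCGC, TTTGGCGC or TTTCGCGC), of which those beginning at -110 and -106 overlap on opposite strands. Among the absorptive genes, Rbp2 and Alpi hold an HNF4 match (CAAAGTCCA or CAAAGTTCA), Fabp1 an HNF1 motif in its short form (GTTAAT), Fabp1 and Lct a CDX match (TTTATG), and Rbp2 and Lct a GATA match (AGATAA).

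These motifs were counted on both strands in the RefSeq promoters of 300 bases (250 before and 50 after the start), which matched 11056 of the 16535 genes tested. CHR was in 69.7% of 66 promoters from the lists of mitotic regulators, kinetochore and spindle genes, against 13.9% of the promoters of tested genes and 19.4% of all 27025 promoters. In the spindle list alone it was in 87.0% of 23, and in the replication list in 23.1% of 26. Over all genes called higher in crypt CHR was in 19.5%, and in 13.4% of genes called lower and 12.9% of those not called. The first share was above that of tested genes, from which the calls come, and close to that of all promoters. The CCAAT box was in 71.2% of the mitotic promoters, against 38.6% of tested genes and 37.9% of all promoters. It was in 42.6% of genes called higher in crypt and 38.4% of genes called lower. E2F was in 46.2% of the replication promoters, 7.51% of genes called higher in crypt, 1.59% of genes called lower, 3.4% of tested genes and 1.91% of all promoters. In the promoters of genes called lower in crypt, HNF4 was in 2.35%, HNF1 in 6.51%, CDX in 6.51% and GATA in 8.45%. The same shares were 0.375%, 3.82%, 5.88% and 5.69% among genes called higher in crypt, 0.904%, 4.6%, 6.61% and 6.86% of tested genes, and 0.862%, 7.2%, 12.1% and 11.4% of all promoters. Matches are descriptions of these letters and were not tested, and matches of different motifs can overlap.

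The 6 libraries held 23545159 to 34075619 counts in genes, 20769 to 22099 genes with at least a count, and 2.98% to 5.18% of counts in mitochondrial genes. Levels are CPM, counts scaled to a common library size, after TMM scaling of library size, a method of edgeR, and every difference is the log2 of crypt over villus with its standard error, so a negative value means higher in villus. The groups separated along the component that held 60.1% of the variance of log2 CPM, with crypt libraries at -59.4 to -36.7 and villus libraries at 35.3 to 67.3. Mean GC content of counted genes moved with the groups, 48.99% to 49.27% in crypt and 49.57% to 49.67% in villus, as did the share of the 10 most counted genes, 5.18% to 6.04% and 7.47% to 8.52%. The P3 and P6 libraries, which also entered the fit, stood apart, with a GC content of 44.28% to 47.03%. With a correction for GC content and gene length, chosen after seeing the data, 2723 genes were called higher and 2336 lower.

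Cd44, whose product was used in the sort, had 63.1, 72.6 and 79.4 CPM in crypt libraries 1 to 3 and 22.1, 24.3 and 24.7 in villus libraries 1 to 3, a difference of 1.6 ± 0.35 that only checks the labels. Epcam, the other sort gene, was at 1740, 1750 and 1710 CPM in crypt and 1340, 1500 and 1420 in villus (0.29 ± 0.14, adjusted p = 0.15). Crypt markers were higher in the CD44-positive libraries but were also present in the CD44-negative ones. Summed over 20 stem cell genes, villus libraries 1, 2 and 3 had 47.7%, 44.1% and 38.2% of the level of the equally numbered crypt libraries. In bulk RNA, fewer cells of a type and less RNA per cell cannot be told apart.

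Gene calls used edgeR's quasi-likelihood F test fitted over all 23 libraries, with Benjamini-Hochberg adjusted p below 0.05. Of 16535 genes tested, 2089 (12.6%) were higher in crypt and 1922 (11.6%) were lower. The groups did not overlap for 3961 of these 4011 called genes. Genes that pass this test mostly have separate groups, so a lack of overlap, here or below, is no added support. The direction was not symmetric in size. Among well counted genes (mean log2 CPM of at least 3), 1715 were higher in crypt with a median size of 0.74, and only 1 of them, Gip, passed 2 on the log2 scale. Of the 1372 lower genes, with a median size of 0.99, 193 passed 2 and 31 passed 3. The median over all tested genes was 0.11. The counts fell to 1067 higher and 1237 lower without villus 3, and to 1420 and 1266 without crypt 1. With replicate numbers as a block in the P10 libraries alone, where same-numbered libraries deviated together, 4556 were higher and 4825 lower.

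**Figure D1:**
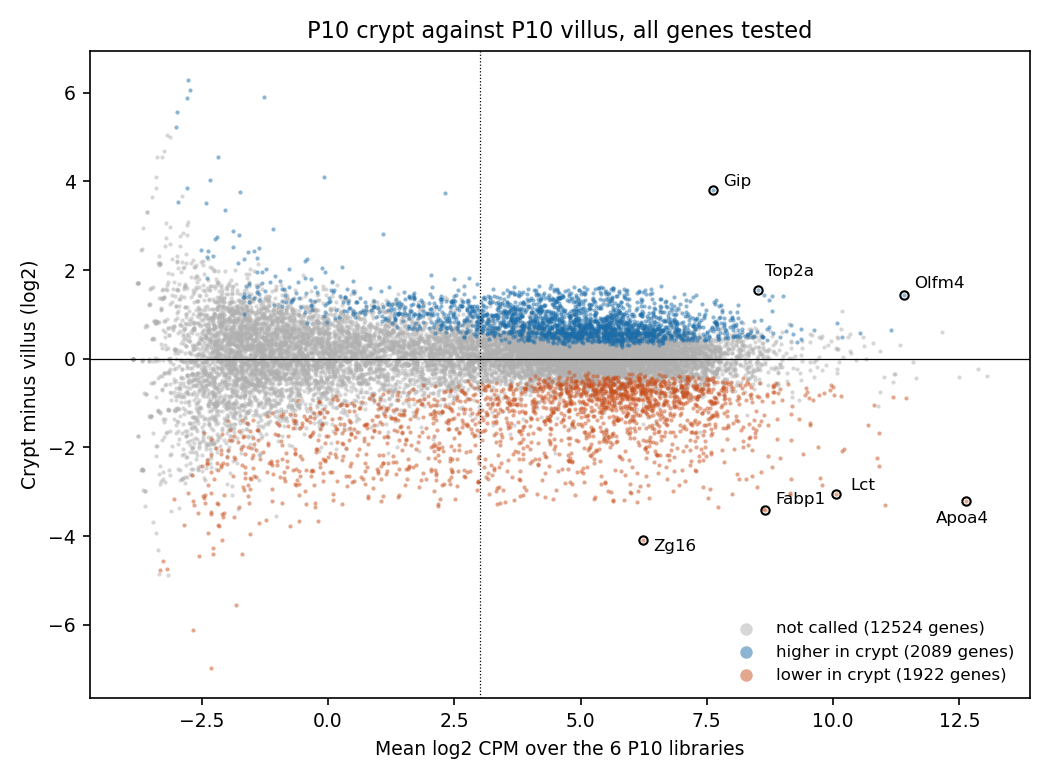
Each point is a gene tested at P10: the horizontal axis is the mean log2 CPM over the 6 libraries and the vertical axis the crypt minus villus difference (log2), with 2089 genes called higher in crypt in blue, 1922 called lower in red and the rest in grey. Right of the dotted line at a mean log2 CPM of 3, Gip is the only called gene above 2, whereas 193 called genes lie below -2.

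Among the well counted genes, Gip stood apart from the others that were higher in crypt. It codes for the incretin hormone of enteroendocrine K cells, and its CPM was 1330, 343 and 724 in crypt libraries 1 to 3 and 70.7, 59 and 42.7 in villus libraries 1 to 3. The lowest crypt library was above the highest villus library, and the crypt libraries differed more among themselves than the villus libraries did. The difference was 3.8 ± 0.65 (adjusted p = 0.000368). Among well counted genes the other 11 of the 12 largest differences towards crypt lay between 1.6 and 1.67. They were Prr11, Kif14, Kif11, Rgcc, Aspm, Ckap2, Cit, Kif18b, Iqgap3, Anln and Cd44, and most of them code for proteins of the spindle or of cytokinesis.

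Genes of cell division were higher in crypt almost without exception. All 25 tested genes of spindle motors and cytokinesis were higher in crypt, between 1.38 and 1.64 with a median of 1.52. So were all 28 kinetochore and chromosome genes (median 1.35) and 25 of 28 mitotic kinases, cyclins and regulators (median 1.43). Kif11, the motor that pushes spindle poles apart, had 143, 203 and 170 CPM in crypt and 54, 67.1 and 46.2 in villus, so that every crypt library was above every villus library (1.63 ± 0.28, adjusted p = 0.00032). Aspm, which works at spindle poles, had 69.2, 88.3 and 68.1 CPM in crypt and 25.4, 29.4 and 18.4 in villus (1.62 ± 0.3, adjusted p = 0.000521). Anln, the gene of the cleavage furrow scaffold anillin, had 61.9, 94 and 73.9 and 21.7, 32.2 and 21.7 CPM (1.6 ± 0.27, adjusted p = 0.000272). For these genes crypt 2 was the highest library and the groups were separated by a wide gap.

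Top2a, the topoisomerase that untangles chromosomes, had 598, 733 and 573 CPM in crypt and 232, 251 and 161 in villus (1.56 ± 0.22, adjusted p = 6.03e-05). Ndc80, which couples kinetochores to microtubules, had 41.4, 39 and 39.4 and 15.7, 14.4 and 10.3 CPM (1.57 ± 0.18, adjusted p = 1.84e-05). Both had their lowest value in villus 3. Among the kinases, Aurkb, the catalytic subunit of the chromosomal passenger complex, had 85.4, 88.5 and 78.3 CPM in crypt and 30.4, 31.6 and 22.7 in villus (1.57 ± 0.16, adjusted p = 5.67e-06). Plk1, a kinase of mitotic entry, had 86, 93.3 and 82 and 30.7, 33.2 and 22.8 CPM (1.59 ± 0.22, adjusted p = 6.03e-05). Cdc20, the activator of the anaphase-promoting complex whose promoter is shown above, had 107, 105 and 92.7 and 41.4, 41 and 28.8 CPM (1.46 ± 0.27, adjusted p = 0.000599). The spread within each group was small beside the distance between groups for all 3. The 3 uncalled mitotic regulators were E2f2 (0.25 ± 0.17, adjusted p = 0.322), E2f8 (0.12 ± 0.18, adjusted p = 0.673) and Pttg1, the securin gene (0.79 ± 0.37, adjusted p = 0.128, but 0.0048 with the replicate block within age).

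DNA replication genes followed with smaller differences. All 31 licensing and fork genes were higher in crypt, between 0.59 and 1.41 (median 1.17), as were all 23 genes of nucleotide and one-carbon synthesis (median 1.01). Pole, the catalytic subunit of the leading-strand polymerase, had 88.1, 89.4 and 82.3 CPM in crypt and 34.4, 34.2 and 29.1 in villus (1.41 ± 0.2, adjusted p = 7.35e-05). The helicase gene Mcm6 had 336, 376 and 341 and 189, 214 and 173 CPM (0.87 ± 0.14, adjusted p = 0.000207). Rrm1, the large subunit of ribonucleotide reductase, had 204, 235 and 208 and 91.3, 90.6 and 76.9 CPM (1.32 ± 0.17, adjusted p = 3.36e-05). No villus library reached a crypt library for these genes, and the distance was smallest for Mcm6. Cad, which starts pyrimidine synthesis, had 115, 143 and 113 CPM in crypt and 53.6, 63.4 and 48.1 in villus (1.17 ± 0.28, adjusted p = 0.0043).

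Summed over a list, the villus level was 34.7% of the crypt level for spindle genes, 40.1% for kinetochore genes, 41.5% for mitotic regulators, 46.8% for replication genes and 49.6% for nucleotide supply. The spindle share was 38.9%, 35.9% and 29.0% in the pairs of libraries numbered 1, 2 and 3. Villus 3 was the lowest villus library for all 31 replication genes, 24 of 25 spindle genes, 26 of 28 kinetochore genes and 23 of 25 called mitotic regulators. Crypt 3 was the lowest crypt library for 20, 15, 15 and 17 of them. The counts of these lists did not move by 1.5 times without any of the 6 libraries in turn.

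**Figure D2:**
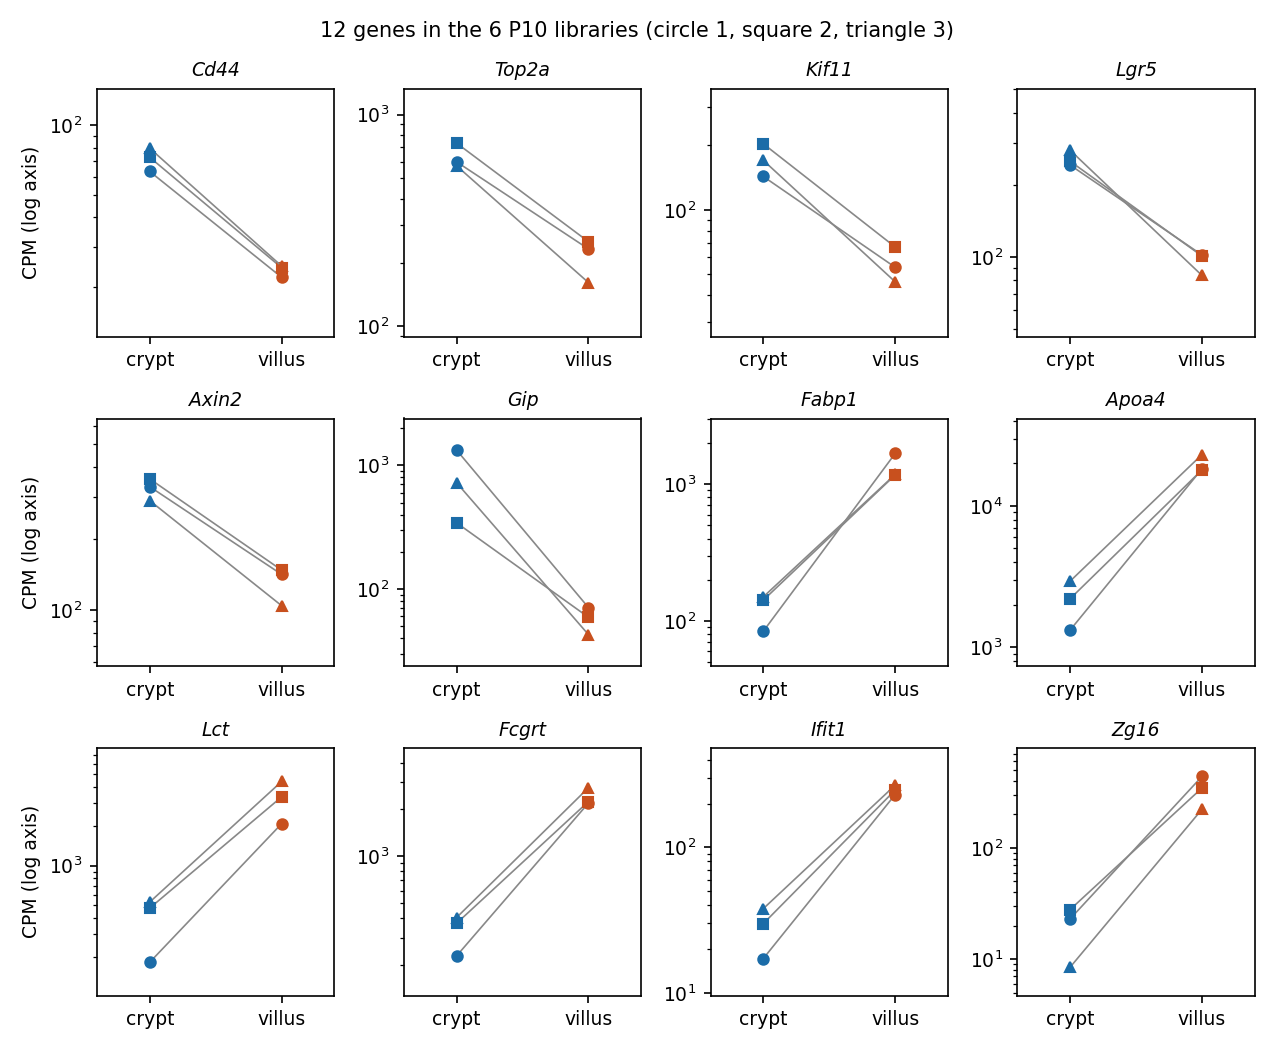
CPM on log axes of 12 genes in the 6 P10 libraries (crypt left in blue, villus right in red), with symbols for replicates 1 to 3 and lines joining libraries of the same number. In each of the 12 panels the 3 crypt libraries lie on one side of the 3 villus libraries, and Gip has the widest spread among the crypt libraries, from 343 to 1330.

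Regulators of entry into the cell cycle were divided. Of 8 G1 cyclins and their kinases, 5 were higher and 1 lower in crypt. The higher count was 3 without villus 3, and the lower gene, Ccnd3, the cyclin D3 gene (-0.74 ± 0.25), lost its call without any of the 6 libraries in turn. Ccnd1, the cyclin D1 gene, had 185, 209 and 162 CPM in crypt and 102, 102 and 68.8 in villus (1.03 ± 0.24, adjusted p = 0.0032). Cdk4, its kinase partner, was at 0.28 ± 0.17 (adjusted p = 0.24). Among 14 CDK inhibitors and genes of cell cycle exit, 2 were higher and 3 lower, beside 12.6% and 11.6% of all genes tested. Cdkn1c, which codes for the inhibitor p57, had 22.1, 27.3 and 43 CPM in crypt and 198, 196 and 267 in villus (-2.84 ± 0.5, adjusted p = 0.000388). Cdkn2b, the gene of another CDK inhibitor, had 17.8, 21.2 and 18.9 and 52.1, 59.7 and 49.8 CPM (-1.48 ± 0.19, adjusted p = 3.54e-05). In both, all villus libraries were above all crypt libraries, whereas Cdkn2c, an inhibitor of the same family as Cdkn2b, was higher in crypt, with 12.9, 11.7 and 8.11 against 4.95, 4.46 and 2.47 CPM (1.46 ± 0.32, adjusted p = 0.00233). Cdkn1a, the p21 gene, was at -0.49 ± 0.25 (adjusted p = 0.163, and 0.00562 with the replicate block within age). Of the other called genes of this list, Rbl1 lost its call without crypt 2 (0.82) or villus 3 (0.91), and Cdkn2a, at or under 0.419 CPM in each library, without crypt 1 (-3.1).

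Ribosome biogenesis was higher in crypt by less than cell division was. Of 30 genes, 24 were higher and none lower (median 0.79), and the villus sum was 57.6% of the crypt sum. Nop56, a core protein of small nucleolar ribonucleoproteins, had 143, 123 and 115 CPM in crypt and 70.8, 64.9 and 46.4 in villus (1.06 ± 0.22, adjusted p = 0.00127). Polr1b, a subunit of RNA polymerase I, had 87.3, 88 and 73.4 and 43.9, 46.2 and 32.4 CPM (1.02 ± 0.19, adjusted p = 0.000721). The groups did not overlap for these genes. Of 30 nuclear genes of oxidative phosphorylation none was higher and 1, Sdhb, was lower, a call that was lost without any of the 6 libraries in turn, while 2 were lower with the replicate block within age, and the summed level in villus was 1.05 times that in crypt.

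Stem cell genes were higher in crypt, 17 of 20 with 1 lower (median 1.21). Lgr5, the R-spondin receptor of crypt base stem cells, had 242, 251 and 279 CPM in crypt and 102, 101 and 83.8 in villus (1.43 ± 0.33, adjusted p = 0.00323). Smoc2, a matricellular gene used as a stem cell marker, had 159, 172 and 140 and 69, 70.8 and 44.4 CPM (1.35 ± 0.24, adjusted p = 0.000478). Ascl2, the Wnt-responsive transcription factor of stem cells, had 45.5, 42.3 and 32.7 and 19.5, 17.4 and 9.22 CPM (1.38 ± 0.31, adjusted p = 0.00272). The 3 genes had no overlap between groups, and villus 3 was the lowest library for each. Olfm4, a secreted stem cell marker, ranged from 3970 to 5620 CPM in crypt and from 1280 to 2100 in villus (1.44 ± 0.39, adjusted p = 0.011), a call lost without villus 3 (1.27). The lower member was Nr2e3, a nuclear receptor gene (-0.95 ± 0.16, adjusted p = 0.000249).

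In the Wnt pathway the called members were mostly receptors, feedback genes and targets. Of 13 target genes and TCF factors, 11 were higher in crypt and none lower (median 1.02). Axin2, a feedback inhibitor and target, had 331, 357 and 289 CPM in crypt and 141, 147 and 104 in villus (1.32 ± 0.28, adjusted p = 0.00165). Rnf43, a ubiquitin ligase that removes Wnt receptors, had 264, 262 and 229 and 131, 129 and 114 CPM (1.02 ± 0.19, adjusted p = 0.000763), and its relative Znrf3 was at 0.9 ± 0.24 (adjusted p = 0.00976). All crypt values of these genes were above all villus values. Of 11 inhibitors and feedback genes, Axin2, Rnf43 and Znrf3 were the 3 higher ones, and Notum, the gene of a Wnt-inactivating enzyme, was the lower one, with 1.28, 2.82 and 3.48 CPM in crypt and 5.32, 11.8 and 12.8 in villus (-1.98 ± 0.55). The Notum call was lost without crypt 1 (-1.66) or villus 3 (-1.76), and with the replicate block within age 2 members of this list were lower.

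Of 13 Wnt and R-spondin receptors, Lgr5, Ptk7 and Ror2 were higher. Ptk7, a Wnt co-receptor, had 35.7, 32.1 and 34.3 CPM in crypt and 16.6, 14 and 13.2 in villus (1.22 ± 0.32, adjusted p = 0.00799), while the Ror2 call (0.59 ± 0.19) was kept only without villus 1 among the 6 libraries left out in turn. Among 7 tested Wnt ligand and secretion genes, Wls, which carries Wnts to the surface, was higher (0.79 ± 0.23) and Wnt5a lower (-1.4 ± 0.49). The Wls call was lost without crypt 2, villus 1 or villus 3, and the Wnt5a call without crypt 1, crypt 2, villus 2 or villus 3. Wnt3, a ligand made by Paneth cells, had 19.7, 10.7 and 17.5 CPM in crypt and 11.6, 10.4 and 10.3 in villus, with overlapping groups (0.57 ± 0.28, adjusted p = 0.144).

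Other signalling pathways varied in how many members were called, beside 12.6% higher and 11.6% lower of all genes tested. Of 18 Notch genes 3 were higher and none lower (median 0.22). Notch1, the receptor of progenitors, had 90.7, 145 and 101 CPM in crypt and 39.2, 60.7 and 48.1 in villus (1.19 ± 0.24, adjusted p = 0.00142), and Lfng, a glycosyltransferase that modifies Notch, was at 1.25 ± 0.32 (adjusted p = 0.00655). The third was Notch2 (0.81 ± 0.23), lost without crypt 2 or villus 3. Hes1, a Notch target, had 223, 128 and 145 and 167, 97.7 and 74.8 CPM with overlapping groups (0.55 ± 0.32, adjusted p = 0.229, and 0.0102 with the replicate block within age). In the hedgehog pathway the signal transducer Smo (1.1 ± 0.26, adjusted p = 0.00371) and the receptor Ptch1 (0.8 ± 0.2, adjusted p = 0.00716) were higher in crypt and 5 of 7 genes did not pass, the ligand Ihh among them (-0.25 ± 0.27, adjusted p = 0.538).

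Of 20 BMP and TGF-beta genes 1 was lower in crypt and none higher, against 3 lower and 2 higher with the replicate block within age. Bmp7, a ligand of the pathway, had 45.1, 47.3 and 66.2 CPM in crypt and 88.8, 106 and 177 in villus, where villus 3 was the highest (-1.23 ± 0.28, adjusted p = 0.00288). Eph receptors and ephrins, which sort crypt from villus cells by repulsion, gave 6 higher and 2 lower of 15. Ephb2 had 199, 198 and 178 CPM in crypt and 110, 109 and 95.5 in villus (0.87 ± 0.21, adjusted p = 0.00475), and Ephb3 was at 1.02 ± 0.25 (adjusted p = 0.00567). Their ligand gene Efnb2 went the other way, with 15.1, 19.3 and 17.6 CPM in crypt and 49.5, 52.1 and 40.9 in villus (-1.45 ± 0.2, adjusted p = 5.24e-05). Not every receptor was higher and not every ligand lower in crypt: Epha1, a receptor gene, was at -0.99 ± 0.22 (adjusted p = 0.00288), and Efna4, a ligand gene, at 0.82 ± 0.29 (adjusted p = 0.0466), a call kept only without villus 1 among the 6 libraries left out in turn. Efnb1, a ligand gene related to Efnb2, was at 0.11 ± 0.22 (adjusted p = 0.75).

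**Figure D3:**
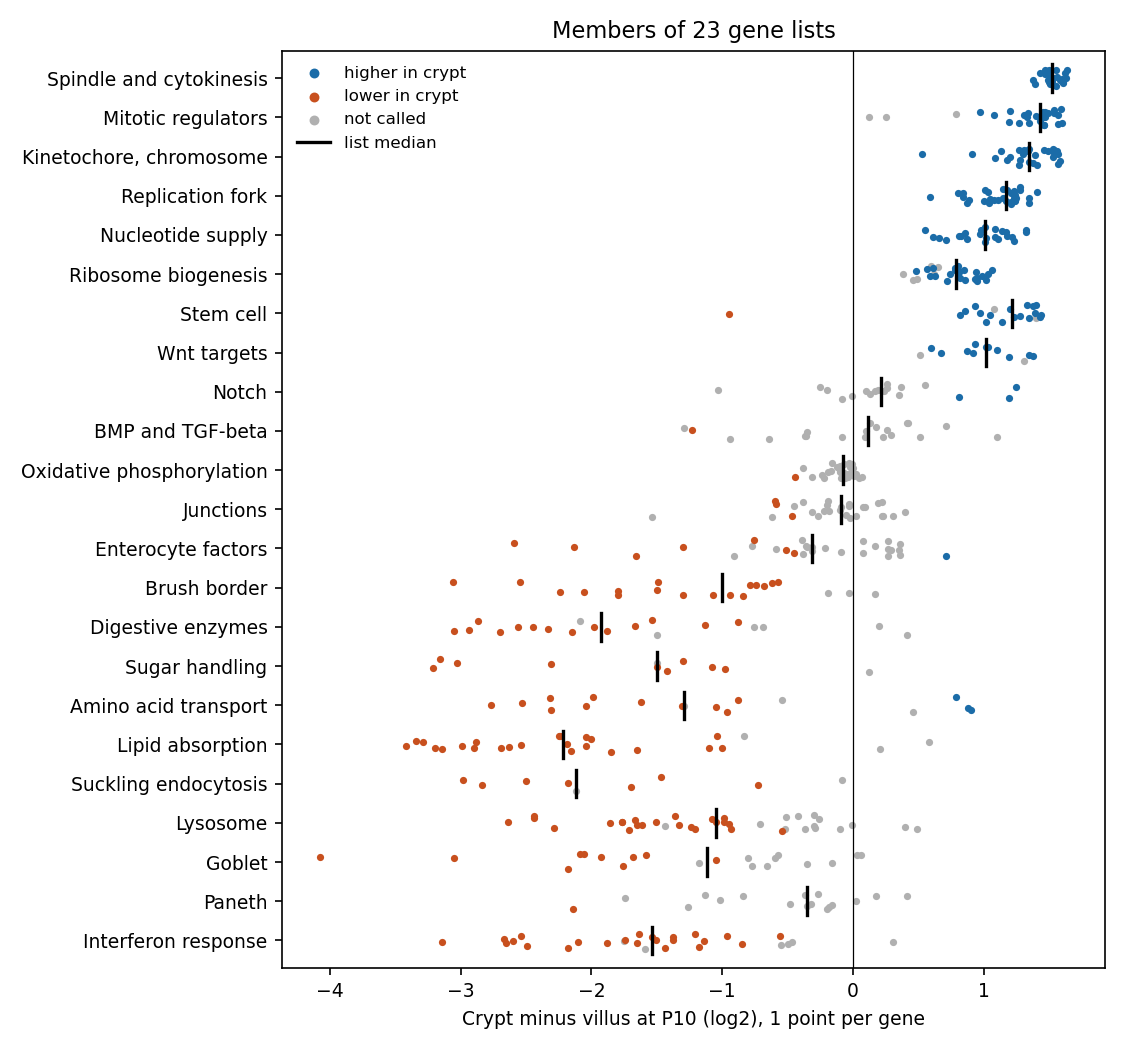
Crypt minus villus differences (log2) of the tested members of 23 gene lists, 1 point per gene, coloured by call, with a black bar at the list median. Spindle members lie between 1.38 and 1.64, whereas members of the lipid absorption list spread from -3.42 to 0.58.

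Genes of fat absorption had the most negative median of the absorptive lists. Of 26 genes of lipid uptake and chylomicron assembly, 23 were lower in crypt and none higher (median -2.21, beside 0.11 over all genes tested). The summed level was 40100 to 50900 CPM in villus and 4370 to 8220 in crypt, 6.8 times as high on average. Fabp1, a fatty acid binding protein gene, had 84.1, 142 and 150 CPM in crypt and 1680, 1170 and 1180 in villus (-3.42 ± 0.47, adjusted p = 5.05e-05). Villus 1 was its highest and crypt 1 its lowest library. Apoa4, an apolipoprotein gene of chylomicrons, had 1320, 2200 and 2930 CPM in crypt and 18300, 18000 and 23100 in villus (-3.2 ± 0.59, adjusted p = 0.000599). Apob, which codes for their structural protein, had 491, 1090 and 1140 and 2820, 4770 and 5260 CPM (-2.24 ± 0.38, adjusted p = 0.00026). Mttp, the transfer protein gene that loads lipid onto Apob, had 423, 682 and 675 and 1990, 2470 and 2840 CPM (-2.04 ± 0.35, adjusted p = 0.000324). No crypt library reached a villus library for any of the 4, and crypt 1 was the lowest of all 6.

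Enzymes that rebuild triglyceride in the enterocyte moved with them. Mogat2, the monoacylglycerol acyltransferase gene, had 50.5, 69.9 and 75.7 CPM in crypt and 363, 387 and 392 in villus (-2.54 ± 0.34, adjusted p = 4.14e-05), and Dgat2, which adds the last acyl chain, had 92.3, 127 and 188 and 885, 890 and 1260 CPM (-2.9 ± 0.44, adjusted p = 0.000124). Both were separated between groups by more than any spread within a group. Abcg5, a sterol exporter gene, was at -2.99 ± 0.44 (adjusted p = 9.74e-05). Cholesterol synthesis did not share this pattern: 1 of 23 genes was higher and none lower, and that call, Tmem97, was lost without crypt 1, crypt 2, crypt 3, villus 1 or villus 3. With the replicate block within age 4 were higher and 1 lower.

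In the list for fatty acid oxidation and ketogenesis, 14 of 24 members were lower in crypt and none higher (median -0.78), and the summed villus level was 1.7 times that in crypt. Acaa1b, a thiolase gene of peroxisomal oxidation, had 4.47, 5.18 and 5.03 CPM in crypt and 34.2, 27.3 and 32.1 in villus, without overlap (-2.67 ± 0.5, adjusted p = 0.000684).

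Retinoid handling gave 4 lower and 6 uncalled genes of 10. Rbp2, the retinol binding protein gene of enterocytes, had 87.8, 137 and 144 CPM in crypt and 1530, 1180 and 1150 in villus (-3.39 ± 0.46, adjusted p = 5.04e-05). Lrat, which esterifies retinol for transport, had 12.1, 24.1 and 22.5 and 56.2, 74.1 and 91.4 CPM (-1.92 ± 0.29, adjusted p = 0.000126). As for Fabp1, villus 1 held the highest level of Rbp2, whereas villus 3 held that of Lrat.

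Brush border enzymes were higher in villus, 14 of 20 with none higher in crypt (median -1.93). Lct, the gene of lactase, which splits milk sugar, had 183, 474 and 527 CPM in crypt and 2090, 3350 and 4390 in villus (-3.05 ± 0.45, adjusted p = 9.84e-05). Alpi, the intestinal alkaline phosphatase gene, had 111, 172 and 197 and 777, 902 and 1150 CPM (-2.56 ± 0.41, adjusted p = 0.000169). In both genes library 1 was the lowest and library 3 the highest within both groups. Anpep, aminopeptidase N, had 712, 1290 and 1300 CPM in crypt and 2810, 3950 and 3780 in villus (-1.67 ± 0.28, adjusted p = 0.000254). Sis, the sucrase-isomaltase gene that rises at weaning, was low in every library, with 11.7, 8.25 and 10.8 CPM in crypt and 14.2, 16.5 and 18.7 in villus (-0.69 ± 0.41, adjusted p = 0.24). Mgam, maltase-glucoamylase, had overlapping groups (0.2 ± 0.17, adjusted p = 0.433).

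Structural genes of the brush border differed less. Of 20, 17 were lower in crypt and none higher (median -1), and the villus sum was 2.13 times the crypt sum. Pdzk1, a scaffold for apical transporters, had 7.06, 9.97 and 14.5 CPM in crypt and 75, 77.3 and 111 in villus (-3.06 ± 0.54, adjusted p = 0.000448). Cdhr5, a protocadherin gene that links microvilli, had 186, 227 and 280 and 892, 1010 and 1380 CPM (-2.24 ± 0.4, adjusted p = 0.000392). Vil1, which codes for the actin bundler villin, had 760, 980 and 844 and 1390, 1620 and 1600 CPM (-0.84 ± 0.18, adjusted p = 0.00205). The villin gene had the smallest difference of the 3, and its groups did not overlap.

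Transporter genes were higher in villus for most nutrients. Of 11 genes of sugar transport and metabolism 9 were lower in crypt (median -1.50). Slc5a1, the sodium-glucose carrier SGLT1, had 156, 180 and 185 CPM in crypt and 333, 397 and 554 in villus (-1.3 ± 0.2, adjusted p = 0.000158). Both named gluconeogenic enzyme genes differed more, Pck1 with 114, 194 and 322 CPM in crypt and 1320, 1430 and 2390 in villus (-3.03 ± 0.5, adjusted p = 0.000219) and G6pc with 8.89, 17.3 and 25.5 and 119, 162 and 196 CPM (-3.21 ± 0.67, adjusted p = 0.00179). Library 1 was the lowest and library 3 the highest for both genes, in crypt and in villus alike. Slc2a1, a glucose carrier of most cells, was at 0.12 ± 0.44 (adjusted p = 0.876).

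Of 17 peptide and amino acid transporters 11 were lower in crypt and 3 higher. Slc15a1, the peptide carrier PEPT1, had 7, 10.4 and 15.4 CPM in crypt and 59, 72.1 and 93.3 in villus (-2.77 ± 0.46, adjusted p = 0.000253), and Slc6a19, a carrier of neutral amino acids, was at -2.04 ± 0.35 (adjusted p = 0.000346). The higher ones were Slc7a5, a leucine exchanger (0.88 ± 0.19, adjusted p = 0.00206), Slc1a5, a glutamine carrier (0.9 ± 0.2, adjusted p = 0.00251), and Slc1a1, of which the last lost its call without any of the 6 libraries in turn. Of 24 mineral and ion transport genes 13 were lower. The iron importer gene Slc11a2 had 36.7, 61.9 and 77.5 CPM in crypt and 122, 240 and 371 in villus (-2.06 ± 0.37, adjusted p = 0.000427), and the iron exporter gene Slc40a1 had 50.8, 78.4 and 96.8 and 258, 369 and 483 (-2.3 ± 0.34, adjusted p = 0.00011). Both ends of the iron route were thus higher in villus in all libraries. Cftr, the chloride channel gene, was the member higher in crypt (0.93 ± 0.29), a call lost without crypt 2, villus 1 or villus 3, and 2 were higher with the replicate block within age or without crypt 3.

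Vitamin, nucleoside and bile acid transport gave 9 lower of 17. Slc51a and Slc51b, which together form the basolateral bile acid exporter, were at -2.21 ± 0.38 (adjusted p = 0.00034) and -2.48 ± 0.37 (adjusted p = 0.000105). Slc23a1, a vitamin C carrier gene, had 4.83, 6.52 and 9.17 CPM in crypt and 51.9, 52 and 72.7 in villus (-3.11 ± 0.59, adjusted p = 0.000862). The member that was higher, Slc29a1, a nucleoside carrier gene (1.1 ± 0.3), lost its call without villus 3. Among 20 xenobiotic genes 6 were lower, such as the cytochrome P450 gene Cyp3a25 (-2.95 ± 0.74, adjusted p = 0.00676). Maoa, the monoamine oxidase gene, was higher (0.82 ± 0.15, adjusted p = 0.000516), as was Cyp2c55, whose call was lost without crypt 1, crypt 3, villus 2 or villus 3.

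Endocytic genes of suckling enterocytes were higher in villus, 7 of 9 (median -2.12), and the villus sum was 5.71 times the crypt sum. Fcgrt, the neonatal receptor that carries milk IgG, had 229, 371 and 404 CPM in crypt and 2200, 2250 and 2760 in villus (-2.84 ± 0.57, adjusted p = 0.00122). Cubn, the gene of the scavenger receptor cubilin, had 11.8, 23.5 and 51.6 and 112, 188 and 388 CPM (-2.98 ± 0.54, adjusted p = 0.000531). Mamdc4, which codes for endotubin of apical endosomes, had 637, 851 and 1040 and 3720, 4430 and 5410 CPM (-2.42 ± 0.38, adjusted p = 0.000148). All 3 were highest in villus 3, and crypt 1 was the lowest library. Dab2, an adaptor gene of this uptake, was at -2.5 ± 0.4 (adjusted p = 0.000175). Lrp2, the megalin gene, was low, with 1.03, 0.822 and 2.05 CPM in crypt and 3.48, 1.55 and 11.9 in villus, overlapped, and did not pass (-2.12 ± 0.77, adjusted p = 0.0528), though it did with the replicate block within age (adjusted p = 0.00354).

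Of 37 lysosomal genes 23 were lower in crypt and none higher (median -1.05). Neu1, a lysosomal sialidase gene, had 66.7, 70.9 and 99.1 CPM in crypt and 321, 347 and 491 in villus (-2.29 ± 0.37, adjusted p = 0.000178). Glb1, the lysosomal beta-galactosidase gene, had 91.1, 97.7 and 137 and 289, 303 and 472 CPM (-1.71 ± 0.36, adjusted p = 0.00166). Lamp1, an abundant membrane protein gene of the organelle, had 328, 381 and 431 and 704, 838 and 1150 CPM (-1.24 ± 0.23, adjusted p = 0.000556). The difference was larger for the named hydrolase genes than for Lamp1, and no group overlapped. Psap, the gene of the activator precursor prosaposin, was at -0.29 ± 0.21 (adjusted p = 0.341) with overlapping groups.

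The order of libraries was shared by many of these genes. Among the called members, villus 3 was the highest villus library for 23 of 23 lysosomal, 7 of 7 endocytic, 15 of 17 brush border, 12 of 14 enzyme and 18 of 23 lipid genes. Crypt 3 was the highest crypt library for 21, 6, 11, 11 and 19 of them. Crypt 1 was the lowest crypt library for 22, 6, 14, 11 and 21. Library number 3 thus stood at the same end in both sorted populations, and it was also the lowest for most cell division genes.

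Among 15 arginine and urea cycle genes 3 were lower in crypt and none higher. Ass1, which makes argininosuccinate, had 10.8, 14.2 and 25.7 CPM in crypt and 89.6, 96.7 and 170 in villus (-2.82 ± 0.61, adjusted p = 0.00241), while Cps1, the carbamoyl phosphate synthetase gene of the first step, had 4810, 6540 and 5710 and 3010, 4190 and 3990 CPM (0.61 ± 0.26, adjusted p = 0.0932). The Cps1 difference did not pass. Only 1 gene was lower without crypt 1 or villus 3, and 6 were lower and 1 higher with the replicate block within age.

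Among 29 transcription factors and nuclear receptors of enterocytes, 7 were lower in crypt and 1 higher (median -0.31). Creb3l3, a membrane-bound factor of lipid genes, had 79.3, 126 and 135 CPM in crypt and 629, 671 and 746 in villus (-2.59 ± 0.31, adjusted p = 2.04e-05). Maf, a basic leucine zipper factor, had 69.3, 72.8 and 109 and 377, 286 and 433 CPM (-2.13 ± 0.24, adjusted p = 1.99e-05). These factor genes were separated as widely as many enzymes. Nr1h4, the bile acid receptor FXR, was at -1.66 ± 0.22 (adjusted p = 4.55e-05), and Prdm1, a repressor of adult-type enterocyte genes, at -0.76 ± 0.19 (adjusted p = 0.00624).

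The general factors of intestinal identity did not pass the test. Cdx2 had 357, 329 and 298 CPM in crypt and 342, 317 and 271 in villus (0.08 ± 0.18, adjusted p = 0.791). Hnf4a had 966, 1130 and 893 and 771, 925 and 788 CPM (0.27 ± 0.15, adjusted p = 0.204), and Gata4 had 125, 175 and 132 and 140, 166 and 155 CPM (-0.09 ± 0.16, adjusted p = 0.729). The groups overlapped for all 3. The member that was higher in crypt, the vitamin D receptor gene Vdr (0.71 ± 0.22), had overlapping groups and lost its call without crypt 1, crypt 2 or villus 3, and 2 were higher with the replicate block within age.

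The goblet lineage leaned towards villus: 10 of its 20 genes were lower in crypt and none was higher (median -1.11). Zg16, a lectin-like gene of mucus granules, had 23, 27.9 and 8.47 CPM in crypt and 438, 345 and 222 in villus (-4.08 ± 0.64, adjusted p = 0.000172), the widest difference towards villus among well counted genes. Muc2, the main secreted mucin gene, had 94.3, 121 and 115 and 389, 486 and 503 CPM (-2.06 ± 0.28, adjusted p = 4.55e-05), and Fcgbp, a mucus protein gene, had 395, 794 and 552 and 1640, 2810 and 2940 CPM (-2.09 ± 0.29, adjusted p = 5.34e-05). Zg16 was lowest in library 3 of both groups, unlike Muc2 and Fcgbp. Atoh1, the factor that commits cells to secretory fates, had 13.2, 18.5 and 17.3 CPM in crypt and 11.8, 19.3 and 15.9 in villus, with overlapping groups (0.06 ± 0.34, adjusted p = 0.92), and Spdef, which acts after it in goblet cells, was at -0.18 ± 0.33 (adjusted p = 0.743).

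The Clca genes, whose near-identical copies may share reads, were split. Clca1, a goblet cell gene, had 107, 91.6 and 70.8 CPM in crypt and 676, 858 and 695 in villus (-3.05 ± 0.28, adjusted p = 3.49e-06), and Clca4b was at -2.32 ± 0.49 (adjusted p = 0.00185). Clca3b went the other way, with 636, 734 and 612 CPM in crypt and 251, 286 and 192 in villus (1.44 ± 0.25, adjusted p = 0.000308), as did Clca3a2 (1.41 ± 0.32, adjusted p = 0.00315). The single values of these genes are uncertain for that reason.

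Of 23 Paneth cell genes 17 were tested, and 1 was lower in crypt and none higher. That gene was Itln1, an intelectin made by Paneth and goblet cells, with 277, 387 and 317 CPM in crypt and 1050, 1640 and 1630 in villus (-2.14 ± 0.34, adjusted p = 0.000158). Lyz1, the Paneth lysozyme gene, had 251, 258 and 208 and 279, 400 and 145 CPM and overlapped (-0.2 ± 0.4, adjusted p = 0.762), and Mmp7, which activates defensins, was at -0.16 ± 0.57 (adjusted p = 0.869). No Paneth gene was thus found higher in the CD44-positive cells. With the replicate block within age 6 were lower and 1 higher, and counts of defensin genes are uncertain because their copies are alike.

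Enteroendocrine genes pointed in both directions. Of 13 hormone genes, Gip was higher in crypt and 5 were lower, of which 2 remained in number without crypt 2 or crypt 3 and 3 without villus 1. Nts, the neurotensin gene, had 52, 16 and 25.7 CPM in crypt and 212, 78.8 and 163 in villus (-2.28 ± 0.6, adjusted p = 0.00912). Its direction was opposite to that of Gip, and within both groups library 1 was the highest and library 2 the lowest. Sst, the somatostatin gene of D cells, had 81.9, 30 and 73.8 CPM in crypt and 26.4, 23.9 and 23.1 in villus, without overlap, and did not pass (1.34 ± 0.59, adjusted p = 0.111). Cck, the cholecystokinin gene, was at -1 ± 0.55 (adjusted p = 0.199). Of 14 granule and amine genes 3 were lower, among them Tph1, which makes serotonin's precursor (-1.42 ± 0.37, adjusted p = 0.00876). Neurog3, the factor that specifies endocrine cells, had 8.2, 8.71 and 7.25 CPM in crypt and 7.28, 10.6 and 6.55 in villus, with overlap (-0.02 ± 0.39, adjusted p = 0.981).

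Tuft cell genes were scarce, and 10 of 22 could be tested, of which 1 was higher and 3 lower, or 1 lower without crypt 1, crypt 2 or villus 3. The summed level of the list was 20.7 to 47.5 CPM in crypt and 59.8 to 143 in villus. Much of it was Hpgds, a lower member, with 20.4, 6.19 and 35.9 CPM in crypt and 75.2, 48.1 and 129 in villus. Its difference was -2.02 ± 0.61 (adjusted p = 0.0214), a call lost without crypt 1, crypt 2 or villus 3. Ltc4s was lower too (-2.49 ± 0.66, adjusted p = 0.00891). The higher member was Plcg2, a phospholipase gene of the tuft cell signal chain (1.1 ± 0.28, adjusted p = 0.00647). Pou2f3, the factor of tuft cells, had 2.14, 1.75 and 1.49 CPM in crypt and 0.715, 0.393 and 0.267 in villus (1.96 ± 0.43, adjusted p = 0.00247). The marker Dclk1 was at or under 0.301 CPM in every library. Of 19 secretory transcription factors, Pou2f3 was the one higher in crypt and 1 was lower. Without crypt 2, or with the replicate block within age, 4 were higher.

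Interferon-response genes were higher in villus, 23 of 29 with none higher in crypt (median -1.54). Ifit1, an antiviral RNA-binding protein gene, had 17.2, 29.9 and 37.9 CPM in crypt and 231, 248 and 268 in villus (-3.14 ± 0.43, adjusted p = 5.12e-05). Irf7, a factor that drives interferon genes, had 16.5, 15.5 and 19.5 and 74.6, 76.3 and 83 CPM (-2.18 ± 0.35, adjusted p = 0.000169), and Isg15, a ubiquitin-like modifier gene, had 1.36, 2.19 and 1.52 and 10.7, 11.2 and 7.75 CPM (-2.54 ± 0.51, adjusted p = 0.00109). Each was separated without overlap. Of the 6 members that did not pass, Ifit2 had 29.5, 25.9 and 28.6 CPM in crypt and 122, 33.6 and 97.5 in villus, where villus 2 was close to the crypt libraries (-1.59 ± 0.74, adjusted p = 0.129, and 0.0127 with the replicate block within age).

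Of 17 antigen presentation genes 3 were lower and 1 higher, against 6 and 3 with the replicate block within age. B2m, the light chain of MHC class I, had 282, 318 and 296 CPM in crypt and 751, 743 and 804 in villus (-1.36 ± 0.25, adjusted p = 0.000563), and H2-D1, a heavy chain gene, was at -1.01 ± 0.25 (adjusted p = 0.00544). The higher gene, Cd1d1, lost its call without crypt 1, crypt 3, villus 1, villus 2 or villus 3. Of 13 host defence genes 1 was higher, Ccl28, a chemokine gene whose call was lost without any of the 6 libraries in turn, and 2 were lower, Lypd8, which codes for a protein that binds flagella (-0.88 ± 0.17, adjusted p = 0.00079), and Il18, a cytokine gene (-1.82 ± 0.36, adjusted p = 0.000956). With the block 3 were higher and 5 lower. Most immune cell markers leaned towards crypt, many on few counts: of 13 tested, 12 had differences above 0 (median 1.01). The test called 1 higher (Itgax, which had few counts) and 1 lower, Csf1r (3 and 1 with the block). The summed level of these markers was nevertheless 15.1 to 19.4 CPM in crypt and 28.5 to 44.7 in villus. Most of that sum in villus was Csf1r (15.7, 18.2 and 37.5 CPM, and 3.08, 4.11 and 5.76 in crypt). The defining leukocyte gene Ptprc was at 0.195, 0.329 and 0.563 CPM in crypt and 0.0933, 0.288 and 0.134 in villus, and Cd3e had 10 counts over the crypt and 7 over the villus libraries. Their part in the result was not tested.

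Genes of attachment to the basement membrane went both ways. Of 29 genes 5 were higher and 8 lower, and without crypt 1 or villus 3 the lower count was 5, while the higher count was 2 without crypt 2, villus 1, villus 2 or villus 3 and 3 without crypt 3. Itga6, an integrin subunit gene of hemidesmosomes, had 324, 393 and 361 CPM in crypt and 162, 196 and 159 in villus (1.06 ± 0.27, adjusted p = 0.00745). Its partner Itgb4 had 105, 125 and 105 and 118, 144 and 157 CPM and overlapped (-0.32 ± 0.26, adjusted p = 0.401). Lama3, a chain of laminin 332, had 4.67, 7.59 and 10.6 CPM in crypt and 34.7, 42.5 and 75.5 in villus (-2.74 ± 0.4, adjusted p = 9.39e-05), and Dst, a linker gene between hemidesmosome and filaments, had 17.5, 28.4 and 24.3 and 67.5, 95.8 and 90.1 CPM (-1.85 ± 0.23, adjusted p = 2.59e-05). Members of one adhesion structure thus had opposite signs.

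Of 26 actomyosin genes 2 were higher and 4 lower, with a median of 0.00. Over all genes tested 12.6% were higher and 11.6% lower, so these counts do not set the group apart. Mylk, the myosin light chain kinase gene, was the clearest, with 82.1, 119 and 100 CPM in crypt and 296, 333 and 301 in villus (-1.63 ± 0.19, adjusted p = 2.03e-05). The 2 higher genes, Myh9 and Actn1, lost their calls without crypt 2, villus 1 or villus 3, and the lower count was 1 without crypt 1, crypt 3 or villus 3 and 2 without crypt 2 or villus 2. Of 28 junction genes 3 were lower and none higher, or 1 lower without crypt 1, crypt 3, villus 2 or villus 3. Cgn, a tight junction scaffold gene, kept its call in each case (-0.6 ± 0.14, adjusted p = 0.00414). Cdh1, the E-cadherin gene, had 1090, 1300 and 1170 CPM in crypt and 901, 1150 and 998 in villus (0.23 ± 0.19, adjusted p = 0.424). The early response gene Fos had 638, 621 and 501 and 643, 594 and 512 CPM (0.01 ± 0.37, adjusted p = 0.991), and of 17 immediate early and heat shock genes 1, Socs3, was lower, a call lost without any of the 6 libraries in turn (2 lower with the replicate block within age).

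Markers of other cell types were summed in each library. The sum of the mesenchymal markers was 8.85 to 26.3 CPM in crypt and 11.8 to 18.8 in villus with none of 12 tested called (1 higher with the replicate block within age), and Pdgfra, a fibroblast marker, had 3 and 5 counts over the groups. The sum of the endothelial markers was 7.65 to 10.5 and 5.91 to 8.36 CPM, of which Vwf was higher in crypt but kept its call only without crypt 3 among the libraries left out in turn (2 higher with the block), and Cdh5 had 2 counts in each group. Markers of enteric neurons and glia, 2 of 6 lower in crypt, were 16.1 to 23.3 CPM in crypt and 54.1 to 91.5 in villus, of which Ret, a receptor kinase gene, made up 9.25, 12.8 and 17 and 40.6, 57.7 and 77.7 (-2.17 ± 0.34, adjusted p = 0.000158), while Sox10, the defining factor of enteric glia, had 0 counts in crypt and 1 in villus. Markers of pancreatic acinar cells summed to 13 to 36 CPM in crypt and 127 to 295 in villus. Most of this was Ctrb1, a chymotrypsinogen gene (10.3, 33.2 and 29.3 and 124, 292 and 168 CPM; -3 ± 0.44, adjusted p = 9.89e-05), and the acinar genes Prss2 and Cpa1 were at 0 in all 6 libraries. What part such cells have in any result was not tested.

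The same contrast at birth gave values in the same direction for all 24 of the largest P10 differences. Fabp1 had a difference of -1.99 at P0 beside -3.42 at P10, Apoa4 -1.32 beside -3.20 and Susd2, a membrane protein gene, -0.52 beside -3.22. Towards crypt, Kif11 had 2.53 at P0 beside 1.63 at P10 and Gip 3.43 beside 3.80. These genes were chosen for their P10 differences, so smaller P0 values, as for Fabp1 and Apoa4, show nothing by themselves. Kif11 went the other way, with the larger difference at P0. Over the whole spindle list the median of P10 difference minus P0 difference was -0.6, towards a larger difference at P0. The same median was -1.44 for the lipid absorption list and for the brush border enzymes. It was -1.05 for the endocytic list and -0.53 for brush border structure, all towards a larger difference at P10. Over all genes tested it was -0.03. The lists were chosen with earlier results of these data known, and these medians were not tested. The test of the change itself, P10 difference minus P0 difference, called 0 genes more towards crypt and 0 more towards villus (0% each) in edgeR's quasi-likelihood test over 16535 genes, with 1157 at an unadjusted p below 0.05 and a lowest adjusted p of 0.208. DESeq2 called 1 and 8, and edgeR with the replicate block within age 9 and 157, among them Proz, which codes for protein Z of blood clotting, Mfsd2a, a lipid carrier gene, and G6pc (adjusted p = 0.0272, 0.0482 and 0.0285). Without villus 1 of P0 the counts were 236 and 840, and without villus 1 of P10 they were 0 and 1. Larger differences at P10 than at birth in absorptive genes were therefore not established gene by gene with all libraries and no block.

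**Figure D4:**
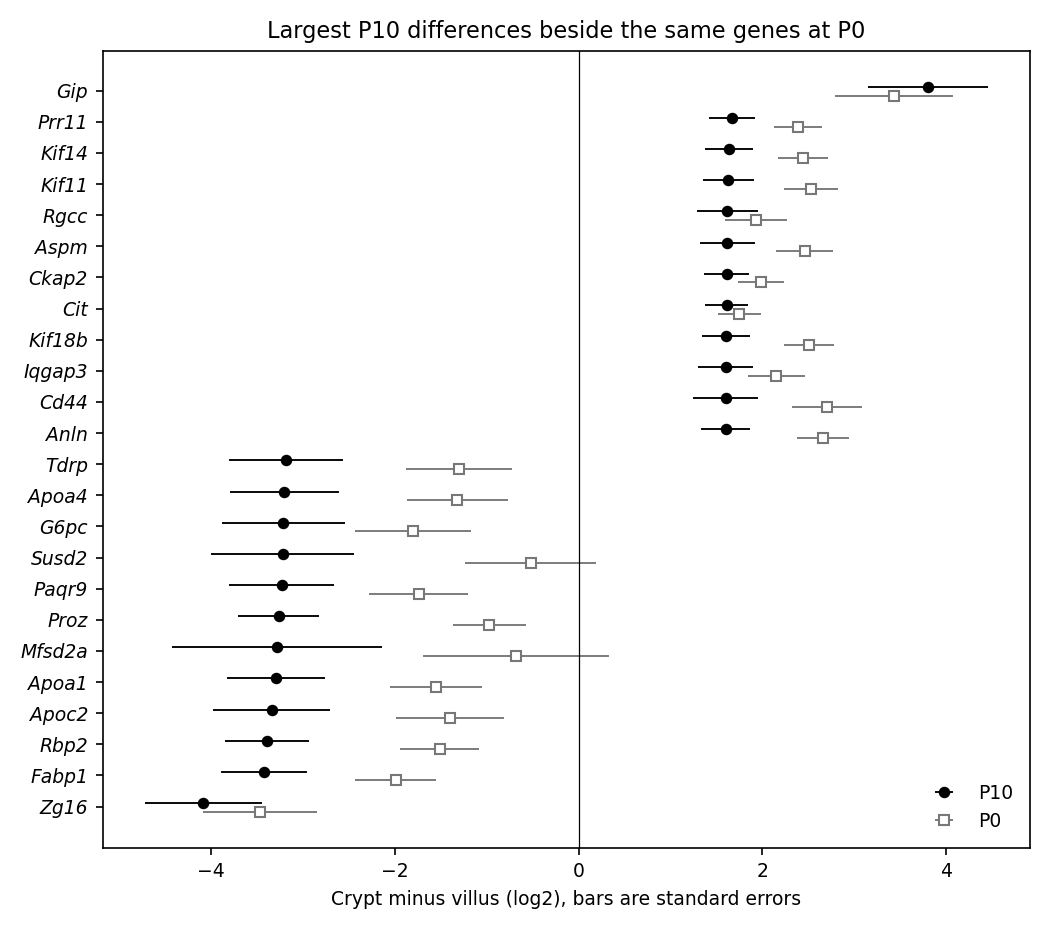
Crypt minus villus differences (log2) of the 24 largest P10 differences at P10 (filled circles) and P0 (open squares), with standard errors as bars. The genes were chosen for their size at P10, which by itself favours a larger value there than at P0. Apoa4 lies at -3.20 and -1.32, and no gene passed the test of the change in the main edgeR fit, with all libraries and no block.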

How the data were processed

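RNA-seq read counts per gene were deposited by the authors for each of the 23 libraries. Per the submitters' processing notes, Trim Galore, STAR, HTSeq and the build mm9 were used; their versions, the strand setting and the handling of reads that map more than once are not given in the sources used here. Each file listed 47593 genes and 5 summary lines, which were left out (9.48% to 13.3% of P10 reads counted outside genes).

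From these counts edgeR 4.0.16 (R 4.3.3) was fitted to all 23 libraries with 1 coefficient per group, TMM scaling, filterByExpr (minimum count 10, minimum total 15), a robust quasi-likelihood F test with 15 residual degrees of freedom and Benjamini-Hochberg adjustment, threshold 0.05. The procedure was tested on simulated data, where it recovered most of the larger seeded changes but missed many of the smaller ones. An uncalled gene may therefore still differ. CPM use TMM-scaled library sizes. Alternatives were DESeq2 1.42.0, its size factors, no filter, the P10 libraries alone, the fit without P3 and P6, each library left out and replicate number as a block. A correction for GC content and length was added after seeing the data.

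The labels do not state a pairing. Deviations from group means of same-numbered P10 libraries correlated at 0.635, 0.557 and 0.581, and of differently numbered ones at -0.390 to -0.146. As each group is centred on its own mean, positive values for same-numbered libraries push the others negative, so the negative values add little. Because same-numbered libraries deviated together, the numbers were used as pairs in the runs with a block. The main fit, which gave the calls and p-values unless stated, left this pairing out. Replicate libraries differed by 20.5 to 71.8 chi-square units per gene, far beyond counting noise, so none was counted as a duplicate.

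The comparison and the 55 gene lists were chosen with earlier results of these data known. Genes named were the 12 largest differences per direction whose mean log2 CPM reached 3 and whose groups did not overlap, up to 4 called and 2 uncalled members per list, a fixed set, and genes with at least 3000 CPM. Named outside this rule, chosen after their values were seen, were Abcg5, Cad, Ccnd3, Cdc20, Cftr, Dgat2, Efna4, Gata4, Glb1, Irf7, Lamp1, Maoa, Mcm6, Mmp7, Mogat2, Mttp, Neurog3, Nr2e3, Pou2f3, Ptprc, Pttg1, Slc1a5, Slc29a1, Slc7a5, Smoc2, Sox10, Spdef and Vdr. Promoters came from RefSeq (GRCm38.p6), matched by symbol, since the counts use another build.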

Additional observations from a re-analysis of the deposited data

How the results depend on the processing

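No named gene that was called reversed its direction under any alternative run. Of these 258 called named genes 192 kept the call without each P10 library in turn, 57 being lost without villus 3 and 25 without villus 1. The leave-one-out counts at P10 were 1067 to 1690 higher and 1237 to 1805 lower in crypt, and for the change from P0 0 to 236 and 0 to 840, the highest without villus 1 of P0. Without a filter on low counts 1327 genes were higher. With the P10 libraries alone 2752 were higher and 3333 lower, and without the P3 and P6 libraries 1542 were higher and 2034 lower. DESeq2 kept 3932 of the 4011 calls. For the change from P0, no filter called 2 genes towards villus, and DESeq2 called 1 towards crypt and 8 towards villus. The cause of these moves was not tested.

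With the replicate number as a block within age, 3920 of the 4011 calls were kept and the change from P0 gave 9 and 157 genes. The block in the P10 libraries alone gave 4556 higher and 4825 lower, and the block with the GC and length correction, chosen after seeing the data, gave 3579 and 2966. Beside the calls given with the results, the block added calls in several lists. With 3 libraries a group, small differences, genes of few counts and lists of near-identical genes were the least certain, and counts could not show whether a low gene was absent.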
